A study of Homo sapiens with 6 samples.

Results

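The comparison described here is of LNCaP cells given 10 nM of the androgen dihydrotestosterone (DHT) for 3 h with untreated LNCaP cells at 0 h. These are 2 of 6 libraries, the other 4 being of cells with DHT for 6, 12, 24 and 48 h, which were used to follow the genes of the first wave. LNCaP is an established line of human prostate cancer with the character of luminal epithelium, and it grows in response to androgen. All cells, the untreated ones included, had spent 3 days in medium free of phenol red with 2.5% charcoal-stripped serum, which is poor in steroid hormones. No vehicle is named for the untreated cells, and an untreated library from a time after 0 h was not used here, so DHT and the hours passed since 0 h cannot be told apart. Each group was 1 library. No difference could be set against a spread between replicates, no p-value is given, and every interval covers counting error only.

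Levels are given in CPM, in which the count of a gene is scaled to one common total for all libraries. A change is log2 of (CPM + 1) with DHT over (CPM + 1) at 0 h, a scale that understates the change of low genes. Of 17990 genes, 11916 reached a mean count of 20 across the 6 libraries. Of these, 89 genes (0.747%) were at least 2-fold higher at 3 h and 103 (0.864%) at least 2-fold lower. The 2-fold limit is a rule of size and not a test. In RNA from whole cultures, fewer cells of a kind and less RNA per cell cannot be told apart. For every one of the 192 genes the 95% interval of the ratio of counts (exact conditional binomial) lay past 1.5-fold, and for 51 of the higher and 33 of the lower genes it lay wholly past 2-fold, as it did for 0.436% and 0.277% of all genes. The mean count was taken over all libraries, so a gene low at both 0 h and 3 h could enter through its later level: 26 of the 89 higher genes were under 5 CPM at both times.

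Androgens such as DHT act on the cell chiefly by changing transcription. The DNA elements of this response, called androgen response elements, lie mostly far from the start sites of the genes they control. In prostate epithelium androgens raise genes of secretion, such as the kallikrein proteases, and genes of growth and metabolism, and they lower the level of others. Samples from the first hours are the usual place to look for direct targets.

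The 2 libraries were of like size, with 13179917 counts at 0 h and 14113170 at 3 h. The other 4 held 13410529 to 20587956. All 8 luminal markers examined, among them KLK3 and KRT8, passed the count minimum. The markers of basal epithelium (KRT5, KRT14 and TP63) summed to 0.332 to 0.895 CPM per library, and those of leukocytes to 13.8 to 18.8 CPM, nearly all of it CD68. Fibroblast markers, of which 2 of 5 passed, summed to 67.5 CPM at 0 h, 70.0 CPM at 3 h and 32.1 to 48.1 CPM later, mostly COL1A1. Endothelial markers, here VWF, summed to 15.1 CPM at 0 h, 24.4 CPM at 3 h and 5.54 to 15.2 CPM later, and the part of other cells in the results was not tested. In the 12 h library, genes of chromosome 4 and of distal chromosome 15 were left with a median of 10.4% and 8.04% of the mean of their 6 h and 24 h levels. For the remaining genes with a known chromosome this median was 104%. That library is therefore not used to sort genes by their later course, and 3 of the higher and 3 of the lower genes lie in those regions.

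**Figure D1:**
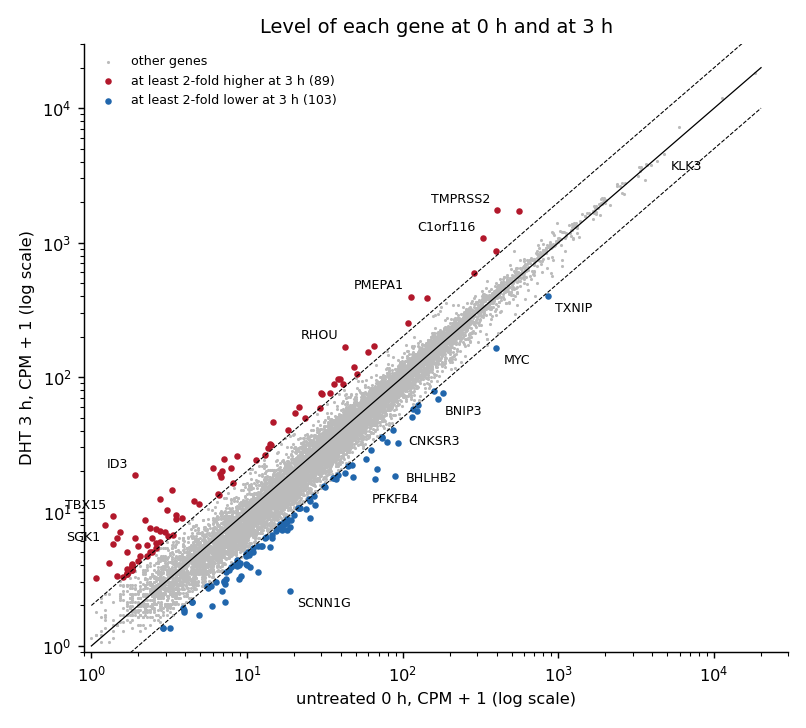
Level of each of the 11916 genes at 0 h (x axis) and at 3 h (y axis), both as CPM + 1 on log scales, 1 library each. The solid line is equality, the dashed lines are 2-fold, and the 89 red and 103 blue points are the genes past them. TMPRSS2 and MYC are far from the line, KLK3 is on it, and most of the higher genes are at low levels.

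Genes long used as markers of androgen action made up the better measured end of the higher group. TMPRSS2, a serine protease of prostate epithelium, stood at 404 CPM at 0 h and at 1747, 2873, 3767, 4479 and 4554 CPM at 3, 6, 12, 24 and 48 h. Its ratio at 3 h was 4.32 (95% interval 4.20 to 4.45). PMEPA1, a membrane protein that damps TGF-beta signalling, was at 112 CPM, then 396, 601, 745, 907 and 1075 CPM (3 h ratio 3.53, 3.34 to 3.75). Both had every DHT library above the untreated one, and in both each later library was above the one before. C1orf116, a gene known as an androgen target in prostate cells, went from 325 to 1073 CPM at 3 h (ratio 3.30, 3.19 to 3.41) and had 965, 904, 1063 and 669 CPM afterwards, at least 2-fold above the untreated level each time. FKBP5, a co-chaperone that tunes steroid receptors, was at an early point of its course: 59.0 CPM at 0 h, 152 at 3 h, and 748, 1588, 2286 and 2050 CPM after that. Its 3 h ratio was 2.57 (2.36 to 2.79).

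On a list of 34 measured reference genes of androgen induction, 14 were at least 2-fold higher at 3 h and 0 were lower. Over all genes 0.747% were higher and 0.864% lower. The median log2 change of the list was 0.58, beside -0.08 over all genes. The list was drawn up from general knowledge with earlier results of these data known, so its direction is not independent evidence. The 14 included TRPM8, a cold-sensing ion channel (5.84 to 16.9 CPM), and the kinase SGK1 described below. STEAP4, a metalloreductase that had the largest change of the later course and is named here after its values were seen, was only just past the limit at 3 h with 19 counts before and 56 after (1.44 and 3.97 CPM), then 35.2, 98.0, 319 and 344 CPM. It was within the limit at 3 h, at 0.99, when counts were divided by the library totals behind the authors' RPM values. Other members had not moved that far. KLK3, which encodes prostate-specific antigen, had 4727 CPM at 0 h and 4566 CPM at 3 h, a log2 change of -0.05. This change became 0.00 and 0.03 with median-of-ratios and TMM scaling. KLK3 then went to 6232, 7116, 10012 and 11950 CPM. KLK2, its neighbour in the kallikrein family, was at 770 and 1036 CPM (log2 change 0.43) and reached 2175 CPM at 6 h. At 6, 24 and 48 h 30, 32 and 33 of the 34 genes were at least 2-fold higher than at 0 h, as were 15.3%, 10.5% and 15% of all genes.

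Several transcription factors went up from low levels. TBX15, a T-box factor known from skeletal development, had 5 counts and 0.379 CPM at 0 h and 8.22 CPM at 3 h (ratio 21.7, 9.02 to 68) and stood at 13.6, 15.1, 29.9 and 14 CPM later. MAF, a basic leucine zipper factor, had 0.455 CPM at 0 h and 5.39 CPM at 3 h and went on to 9.25, 17.8, 31.6 and 45.8 CPM. SNAI2, the repressor of epithelial genes also called Slug, had 0.379 and 4.75 CPM and stayed between 6.82 and 10.3 CPM afterwards. All 3 had a few counts in untreated cells, so the intervals of their ratios are wide, yet each later library was above the untreated one. GRHL2, a grainyhead factor that maintains the epithelial state, was measured far more precisely at 141 and 387 CPM (ratio 2.74, 2.60 to 2.89), was highest at 6 h with 846 CPM, and came down to 301 CPM by 48 h. KLF5, a zinc finger factor of epithelial growth, went from 1.75 to 6.16 CPM and to 13.1 CPM at 6 h, and DLX1, a homeobox factor, from 1.21 to 7.58 CPM. In all, 4 of 33 listed forkhead, homeobox and related factors were higher and 5 lower (median -0.27), beside 0.747% and 0.864% of all genes. With TMM scaling and with the GC trend removed 3 were lower each time. Among the lower ones were ZIC5, FOXN2, SIX4 and SOX9, of which SIX4 came within the limit with the GC trend removed (-0.90) and SOX9 with median-of-ratios and TMM scaling (-0.96 and -0.93).

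ID3 and ID1 were highest at 3 h. ID proteins pair with basic helix-loop-helix factors and keep them from binding DNA, and they are classical targets of BMP signalling. ID3 had the largest change of all genes at 3 h, from 12 to 249 counts (0.910 to 17.6 CPM, ratio 19.4, 10.9 to 38.0), followed by 6.71, 12.3, 3.59 and 0.665 CPM. ID1 went from 7 to 86 counts (0.531 to 6.09 CPM, ratio 11.5, 5.34 to 29.4) and then had 2.46, 3.45, 0.874 and 0.266 CPM. ID3 was still at least 2-fold above the untreated level at 6, 12 and 24 h and ID1 at 6 and 12 h, and both were below it at 48 h. ID2 had 1.75 and 3.54 CPM (log2 change 0.73). The inhibitory SMADs, which are also BMP and TGF-beta targets, did not follow: SMAD6 had 20.8 and 22.3 CPM, and SMAD7 17.0 and 8.43 CPM. BAMBI, a decoy receptor, had 127 and 66.4 CPM. Among the 28 measured genes of this list 4 were higher (ID3, ID1, SNAI2 and PMEPA1), beside 0.747% of all genes. The 1 lower gene was the activin receptor ACVR2B (30.5 to 14.1 CPM), beside 0.864% of all genes. The median of the list was -0.16 and became 0.06 when the dependence on GC content was removed. ACVR2B was within the limit, at -0.98 and -0.97, with one other scaling (TMM) and with the GC trend removed.

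Genes of xenobiotic metabolism included targets of the aryl hydrocarbon receptor, a sensor of dioxins and plant compounds. Of 10 measured genes of its list 4 were higher and 0 lower (median 0.48), beside 0.747% and 0.864% of all genes (median -0.08). CYP1A1, a monooxygenase that is its best known target, had 1.75 CPM at 0 h and 11.5 CPM at 3 h (ratio 6.58, 4.23 to 10.7), and 7.83, 5.39 and 5.58 CPM at 6, 24 and 48 h. CYP1A2, its neighbour, had 2.50 and 7.79 CPM and was back at 2.76 CPM by 6 h. Both lie in the part of chromosome 15 that was depleted in the 12 h library. TIPARP, a mono-ADP-ribosyltransferase that limits the receptor, went from 5.92 to 19.0 CPM and on to 52.3 CPM at 6 h. AHRR, the repressor of the receptor and a common target of it, had 85.4 and 90.6 CPM, and NQO1, a quinone reductase, 169 and 295 CPM (log2 change 0.80). UGT1A6, a glucuronosyltransferase, had 0.835 and 2.69 CPM, and was within the limit at 0.97 with those same totals. It is 1 of 8 UGT1A symbols among the 89, which share exons and have nearly the same counts: counted once, the higher group held 82 genes.

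Signalling genes of the first wave covered several pathways. SGK1, a kinase of ion transport and a classical glucocorticoid target, had 3 counts at 0 h and 98 at 3 h (0.228 and 6.94 CPM, ratio 30.5, 10.1 to 150), followed by 15.1, 15.6, 17.7 and 3.52 CPM. RHOU, a small GTPase of the cytoskeleton, was well covered at 41.7 and 167 CPM (ratio 4.01, 3.65 to 4.41) and reached 418, 627, 917 and 776 CPM. Both were above the untreated level in all DHT libraries. JAG1, a ligand of Notch receptors, had 108 and 251 CPM, while 18 other measured Notch pathway genes were within 2-fold and the receptor gene NOTCH1 was at a log2 change of -0.94. ERRFI1, which restrains EGFR signalling, went from 33.3 to 74.6 CPM and then 243, 377, 834 and 575 CPM. PER1, a clock gene also known as a direct steroid target, had 29.1 and 74.1 CPM, with 51.9 to 82.2 CPM later. IGFBP3, which binds insulin-like growth factors, had 5.69, 18.1 and 22.1 CPM at 0, 3 and 6 h and 6.51 CPM at 48 h.

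The rest of the 25 largest increases were mostly of genes at low levels. CHRNA2, a subunit of nicotinic acetylcholine receptors, went from 5.01 to 20.2 CPM and on to 80.3 CPM at 48 h. The coagulation factor gene F5 had 1.37 and 6.59 CPM, NPPC, which encodes C-type natriuretic peptide, 0.303 and 3.12 CPM, and the tight junction gene CLDN8 2.05 and 9.21 CPM. NNMT, which methylates nicotinamide, had 0.910 and 5.31 CPM, PMAIP1, a proapoptotic BH3 protein known as NOXA, 0.683 and 3.97 CPM, and AMOTL1, an angiomotin of cell junctions, 7.66 and 24.8 CPM. TMCC3, a protein of the endoplasmic reticulum, went from 2.28 to 13.4 CPM and on to 52.0 CPM at 24 h. CCDC141 had 1 count at 0 h and 31 at 3 h (ratio 29, 4.82 to 1180) and 9.61 to 18.0 CPM later, and its size of change rests on that 1 count. OSGIN1, a gene of the oxidative stress response, had 6.15, 23.5, 7.38, 10.5, 19.8 and 16.0 CPM over the 6 times. MALL, a protein of membrane rafts, was a pulse of 1 library: it had 6.38 CPM at 3 h and 1.59 to 2.49 CPM in the other 5.

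Most of the higher genes that passed the count minimum were at the start of a longer rise. At 6, 12, 24 and 48 h 71, 73, 64 and 63 of the 89 were at least 2-fold higher than at 0 h, and 0, 2, 2 and 2 were at least 2-fold lower. Over all genes, 15.3%, 11%, 10.5% and 15% were higher at these times and 3.01%, 7.99%, 10.8% and 7.33% lower. Outside the regions depleted at 12 h, 73 of 86 higher genes were higher at 12 h, beside 11.6% of all genes there. All of these comparisons share the 0 h library, so a chance low value there would make a gene higher at every time. By later course, 57 were kept (past 2-fold in the same direction at 6, 24 and 48 h), 10 returned (within 1.5-fold of 0 h at 24 and 48 h), 4 reversed (past 2-fold the other way at 24 or 48 h) and 18 had another course. The count minimum was a mean over all libraries, so among low genes it favours those that stay high. Without it 101 genes were higher at 3 h, of which 57 were kept and 20 returned. The median of the 57 kept genes was 1.35 at 3 h, 2.27 at 6 h, 2.81 at 24 h and 2.71 at 48 h. At 3 h they had reached a median of 26.0% of their largest shift in CPM, and the 3 h library was the highest for 2 of the 57. Among all 11916 genes, 55 had the untreated library at least 2-fold below every other, which by definition places them among the 57.

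The 10 returning genes were ID1, IGFBP3, MALL, ZNF423, NKX3-2, S1PR3, CSMD2, DSCAML1, E2F2 and BRUNOL5, and 7 of them had their highest level at 3 h. S1PR3, a receptor of sphingosine-1-phosphate, had 3.95, 10.4, 7.76, 6.90, 2.77 and 4.65 CPM over the 6 times. E2F2, a factor of S phase entry, had 5.46 CPM at 0 h, 12.4 CPM at 3 h and 4.13 to 6.53 CPM later. The 4 reversed genes were PIGR, LCN2, GAS7 and GRIK4. PIGR, the receptor that carries immunoglobulins across epithelia, had 6.83, 20.1, 3.58, 3.96, 0.194 and 6.98 CPM, and LCN2, an iron-binding lipocalin, had 17.2, 39.5, 11, 10.2, 0.971 and 26.3 CPM. Both were lowest in the 24 h library and near or above the untreated level at 48 h.

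**Figure D2:**
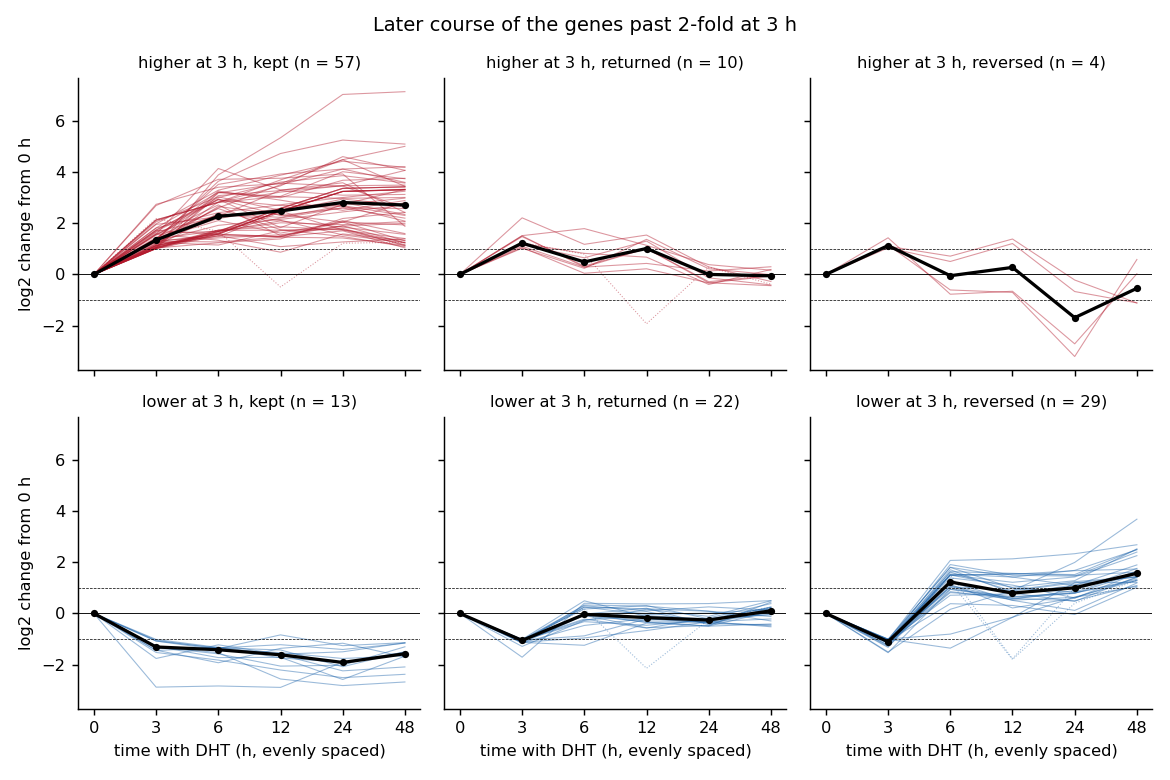
Log2 change from 0 h (y axis) at each time (x axis, h, evenly spaced) of the genes at least 2-fold higher (top, red) or lower (bottom, blue) at 3 h, by later course, 1 library per time. Thin lines are genes, black lines medians, dashed lines 2-fold, and dotted thin lines genes of the regions depleted at 12 h. The 57 kept higher genes go on rising to a median of 2.81 at 24 h, while the 29 reversed lower genes cross to a median of 1.57 at 48 h.

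The lower genes had a more mixed course. Of the 103, 21, 19, 30 and 18 were at least 2-fold lower than untreated cells at 6, 12, 24 and 48 h, and 25, 10, 15 and 29 were at least 2-fold higher. Outside the regions depleted at 12 h, 16 of 100 were lower and 10 higher at that time, beside 3.86% and 11.6% of all genes. By the same classes 13 were kept, 22 returned, 29 reversed and 39 had another course. For 71 of the 103 the 3 h library was the lowest of all 6. At 3 h the change in a gene's level also followed its GC content, with medians from -0.34 in the bin of genes around 37.4% GC to 0.04 in the bin around 54.5% GC. The lower genes had a median GC content of 44.4% and the higher genes of 50.2%, beside 49.5% over all genes. When this trend was removed, 48 of the 94 lower genes with a GC value were still past 2-fold, against 82 of the 84 higher ones, and over all genes 105 were higher and 48 lower (68.6% higher, beside 47.2% for the same genes before the correction). With TMM scaling the counts were 109 and 67, so 61.9% of the genes past 2-fold were higher, beside 46.4% in the counts above.

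The 13 kept lower genes were the steady part of this group, and 11 of them stayed past 2-fold at 3 h with the GC trend removed. With that correction made at every time, the class held 7 genes. MYC, the growth-promoting transcription factor, had 398 CPM at 0 h, 163 CPM at 3 h and 120, 120, 65.7 and 124 CPM later (3 h ratio 0.409, 0.390 to 0.430). TXNIP, a protein that binds thioredoxin and limits glucose uptake and is named here after its values were seen, went from 852 to 403 CPM and to 334, 316, 201 and 303 CPM, and its 3 h change came within the limit with TMM scaling (-0.996) and with the GC trend removed (-0.94). OPRK1, the kappa opioid receptor, had 8.80, 3.05, 2.39, 0.660, 0.389 and 0.532 CPM. In these 3 genes no DHT library came within 2-fold of the untreated one. MYC and OPRK1 were the only 2 of 17 reference genes of androgen repression past the limit at 3 h. Over all genes 0.864% were lower and 0.747% higher. The list of 17 had a median of 0.00 whose sign changed with scaling. CXCR7, a chemokine receptor of the list, was at 522 and 295 CPM (log2 change -0.82), and DDC, which makes dopamine from DOPA, at 131 and 159 CPM. At 24 h, 10 of the 17 were at least 2-fold lower and 3 higher, beside 10.8% and 10.5% of all genes.

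SCNN1G and CNKSR3, which act in sodium transport, were among the largest decreases. SCNN1G, the gamma subunit of the epithelial sodium channel, had the largest decrease of all, with 235 counts at 0 h and 22 at 3 h (17.8 and 1.56 CPM, ratio 0.0874, 0.0538 to 0.136), then 1.64, 1.54, 4.03 and 5.58 CPM. CNKSR3, a scaffold that promotes the activity of this channel, had 92.0 and 31.3 CPM (ratio 0.341, 0.305 to 0.380), then 25.3, 19.1, 15.3 and 16.9 CPM. The alpha subunit SCNN1A was at 199 and 181 CPM and the beta subunit SCNN1B at 3.95 and 2.41 CPM. NEDD4L, the ubiquitin ligase that removes the channel from the membrane, was at 161 and 286 CPM (log2 change 0.82), and SGK1, the kinase that inhibits NEDD4L, was higher as given above. Of 17 measured genes of the channel and its regulators 1 was higher and 2 were lower (median -0.20), beside 0.747% and 0.864% of all genes.

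FOS, a subunit of the AP-1 factor that is induced by many stimuli, had 5.92 and 1.56 CPM and 0.820 to 2.09 CPM later. Its relative FOSL2 went the other way, from 49.6 to 104 CPM. The list of 23 immediate early genes had 1 higher member, FOSL2, and 3 lower, FOS, MYC and KLF10. Its median was 0.07, and over all genes 0.747% were higher and 0.864% lower. KLF10 was at 37.1 and 17.8 CPM and came within the limit under 3 alternatives (median-of-ratios and TMM scaling, and the GC trend removed). INHBB, which encodes the beta B subunit of activins and inhibins, had 9.48 and 2.83 CPM and fell to 1.21 CPM at 24 h. RASD2, a small G protein, had 6.22 and 1.91 CPM, and ZIC5, a zinc finger factor, 6.22 and 1.13 CPM. CISH, an inhibitor of cytokine signalling, had 7.21 and 2.98 CPM, and was within the limit at -0.98 with TMM scaling.

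Many genes known to be induced by low oxygen were lower at 3 h. In hypoxia the transcription factor HIF-1 binds sites near such genes, often with the core ACGTG, and raises enzymes of glycolysis, collagen modification and mitophagy. Of 52 measured hypoxia-induced genes 12 were at least 2-fold lower at 3 h and 0 were higher, beside 0.864% and 0.747% of all genes. The median was -0.58, and 49 of the 52 were below 0, beside 7218 of the 11916 genes. With the GC trend removed 10 of 50 were lower and 1 was higher, with a median of -0.45, and with median-of-ratios and TMM scaling 10 and 9 were lower and 1 was higher. The list was written with earlier results of these data in view and shares 9 measured genes with the list of glycolysis. HK2, PFKFB3 and PFKFB4 are the 3 of these that were at least 2-fold lower.

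BHLHB2 (BHLHE40), a repressor of the clock and of metabolism, had 87.6 CPM at 0 h, 17.2 CPM at 3 h (ratio 0.196, 0.170 to 0.226) and 25.2, 48.7, 36 and 44.8 CPM later. PFKFB4, which sets the level of a glycolytic activator, had 65.8 and 16.4 CPM (ratio 0.249, 0.214 to 0.288) and then 27.6, 45.9, 34.0 and 40.9 CPM. These 2 stayed below the untreated library throughout, as did PFKFB3, ZNF395, PLOD2 and PPFIA4, given below. PLOD2 and PPFIA4 were close to it at 48 h, with 4.72 and 10.2 CPM. A second pattern, in CPM, was a low point at 3 h with higher levels from 6 h on. JMJD1A (KDM3A), a histone demethylase, had 66.9, 19.8, 88.5, 86.9, 87.8 and 95.2 CPM over the 6 times. BNIP3, a mitophagy receptor, had 166, 67.5, 137, 186, 154 and 235 CPM, and P4HA1, a subunit of collagen prolyl hydroxylase, had 78.1, 31.7, 74.5, 109, 90.3 and 137 CPM. In these 3 genes the 3 h library was the lowest of the 6. The return at 6 h depended on the GC trend, which was strong at that time. With it removed, the changes at 3 and 6 h were -1.60 and 0.00 for JMJD1A and -1.17 and -0.68 for BNIP3. For P4HA1 they were -1.03 and -0.87. PDK1, which holds pyruvate back from the mitochondria, had 43.8, 20.6 and 43.0 CPM at 0, 3 and 6 h. Its 3 h change came within the limit with TMM scaling (-0.97) and with the GC trend removed (-0.81). With that trend removed its 6 h change was -0.81 as well. HK2, a hexokinase, had 73.0, 35.1 and 73.9 CPM and came within the limit with both other scalings (-0.99 and -0.96). PLOD2, a collagen lysyl hydroxylase, went from 65 to 14 counts (4.93 and 0.992 CPM), PPFIA4, a liprin, from 10.7 to 2.55 CPM, and RLF, a zinc finger protein, from 24.4 to 7.94 CPM. PFKFB3, the sister enzyme of PFKFB4, had 57.1 and 23.4 CPM and ZNF395, a zinc finger factor, 125 and 60.7 CPM, with 20.6 to 34.9 and 58.1 to 81.3 CPM later. ZNF395 came within the limit with both other scalings (-0.98 and -0.95).

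**Figure D3:**
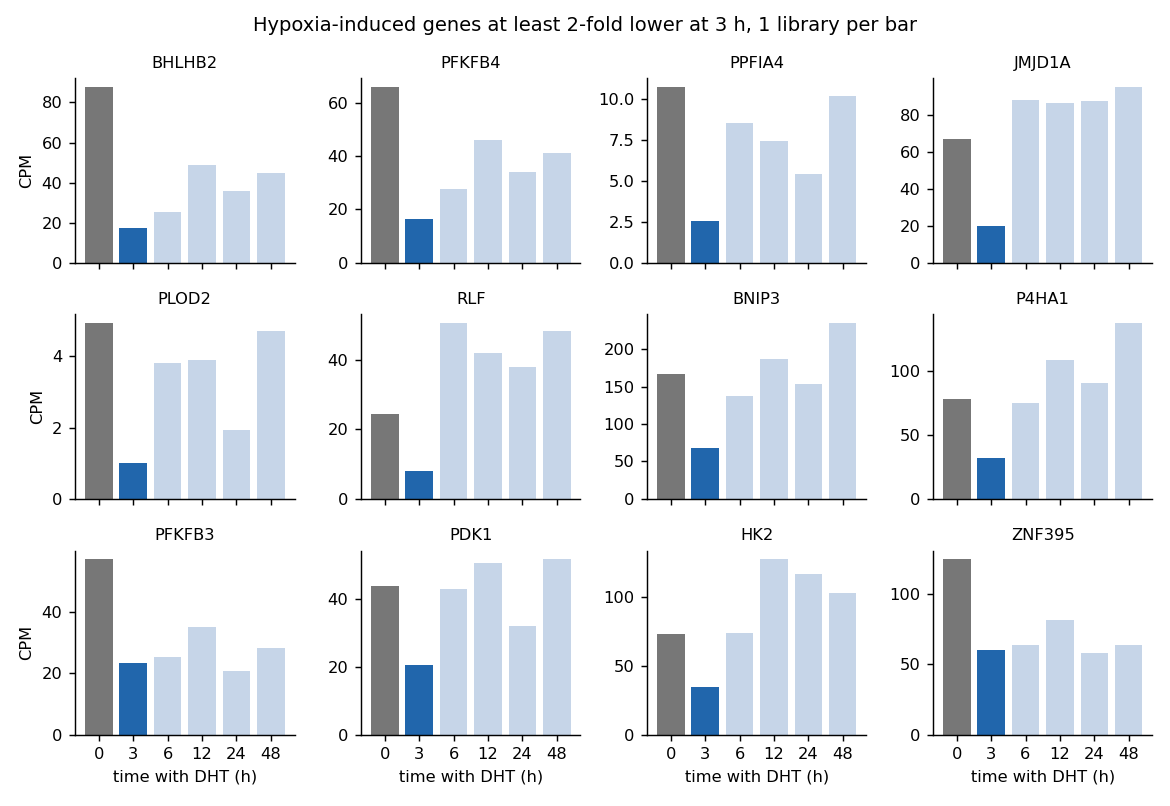
Level in CPM (y axis, from 0, each panel on its own scale) of the 12 hypoxia-induced genes at least 2-fold lower at 3 h, in the libraries at 0 h (grey), 3 h (dark blue) and 6 to 48 h (light blue), 1 library per bar and so no error bar. JMJD1A, BNIP3 and P4HA1 are lowest at 3 h, while BHLHB2 and PFKFB4 remain below their 0 h level of 87.6 and 65.8 CPM.

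Other genes of the list were lower by less than 2-fold, among them BNIP3L (138 and 82.0 CPM), LDHA (609 and 378 CPM), NDRG1 (544 and 340 CPM) and VEGFA (172 and 133 CPM). HIF1A itself was at 63.3 and 40.2 CPM. SLC2A3, a glucose transporter, differed from the rest with 3 and 20 counts (0.228 and 1.42 CPM, log2 change 0.98) and had the largest positive change of the list. At 6, 24 and 48 h, 4, 8 and 0 of the 52 genes were at least 2-fold lower than at 0 h. At the same times 3, 6 and 9 were higher. Over all genes 3.01%, 10.8% and 7.33% were lower and 15.3%, 10.5% and 15% higher. Of 20 glycolysis genes 3 were lower at 3 h and 0 higher, beside 0.864% and 0.747% of all genes. All 3 are among the 9 also on the hypoxia list, and the median of the 20 was -0.16.

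Promoters of this group are shown because the core ACGTG can be seen in them. Sequences come from RefSeq on GRCh38.p14 and cover the 250 bases before the annotated start, on the strand of the gene. Capitals mark ACGTG or its reverse complement CACGT. Where both overlap they read CACGTG and count as 2 matches. The promoter of BHLHE40 lies at chr3:4979187-4979436 (plus strand) and holds 4 matches, that of PLOD2 at chr3:146161185-146161434 (minus) 2, that of BNIP3 at chr10:131981924-131982173 (minus) 2, and that of P4HA1 at chr10:73096867-73097116 (minus) 1.
BHLHE40: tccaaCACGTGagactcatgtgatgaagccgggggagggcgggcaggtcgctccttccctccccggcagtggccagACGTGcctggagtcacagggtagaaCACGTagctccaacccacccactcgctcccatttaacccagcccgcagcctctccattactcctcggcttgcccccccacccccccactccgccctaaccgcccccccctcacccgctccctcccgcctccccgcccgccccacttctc
PLOD2: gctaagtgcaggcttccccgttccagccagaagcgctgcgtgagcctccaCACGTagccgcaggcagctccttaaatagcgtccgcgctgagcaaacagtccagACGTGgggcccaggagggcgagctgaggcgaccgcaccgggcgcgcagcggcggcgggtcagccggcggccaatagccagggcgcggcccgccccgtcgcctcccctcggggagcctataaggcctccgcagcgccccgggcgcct
BNIP3: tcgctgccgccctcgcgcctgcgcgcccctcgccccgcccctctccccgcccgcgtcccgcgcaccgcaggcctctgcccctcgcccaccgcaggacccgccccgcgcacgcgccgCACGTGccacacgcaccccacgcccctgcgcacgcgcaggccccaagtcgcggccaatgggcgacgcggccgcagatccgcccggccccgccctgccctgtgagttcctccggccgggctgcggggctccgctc
P4HA1: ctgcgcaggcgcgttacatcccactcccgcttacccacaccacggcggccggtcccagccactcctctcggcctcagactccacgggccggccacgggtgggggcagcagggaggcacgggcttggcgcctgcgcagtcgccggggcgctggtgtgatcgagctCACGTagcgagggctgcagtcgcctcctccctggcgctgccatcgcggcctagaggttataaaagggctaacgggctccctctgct
In windows from 250 bases before to 50 after the start, on both strands, ACGTG was found in 7 of 11 hypoxia genes that were lower at 3 h (63.6%) and in 18 of 32 that were not (56.2%). The share was 26.9% over the 9559 genes with an entry, 31.6% of the 79 lower genes and 22.1% of the 68 higher ones. The motif was thus about as common in the listed genes past the limit as in those within it. JMJD1A, PFKFB3, PFKFB4 and PDK1 had no ACGTG in this window. The close variant GCGTG, not marked in the sequences above, had 1 match each in JMJD1A, PFKFB3 and PFKFB4 and 0 in PDK1. It was found in 7 of 11 hypoxia genes that were lower (63.6%) and in 19 of 32 that were not (59.4%), beside 51.5% over all genes. Of the higher genes, 8 of 68 (11.8%) held the hexamer TGTTCT, one arm of the androgen response element, beside 8.84% of all genes. Among these 8 are UGT1A6, UGT1A8 and UGT1A9, which share exons and have nearly the same counts but were counted separately. The share is therefore not read as an excess. The TATA box letters TATAAA were in 10 of the 68 (14.7%), beside 5.17%. A match is a run of letters and not a shown binding site, and these windows leave out distant elements.

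The 29 reversed lower genes were a group set apart by GC content. Their median was 38.2%, beside 53.9% for the 13 kept, 45.4% for the 22 returned and 49.5% for all genes. FOXN2, a forkhead factor, had 52 counts at 0 h and 10 at 3 h (3.95 and 0.709 CPM), then 8.50, 6.46, 7.53 and 13.7 CPM. RB1CC1, a scaffold of autophagy initiation, had 17.1, 6.24, 50.6, 35.9, 43.1 and 104 CPM, and MORC3, a nuclear ATPase, had 17.8, 6.66, 38.5, 27.2, 25.5 and 39.0 CPM. In each of these the 3 h library was the lowest and the 48 h library the highest. AKAP12, an anchor of protein kinase A, had 7.89, 2.13, 8.95, 15.5, 34.4 and 113 CPM, at a GC content of 46.3%. SOX9, a factor of prostate development, was lowest at 6 h, with 20.3, 9.57, 7.31, 18.1, 47.9 and 48.4 CPM. With the GC trend at 3 h removed, 4 of the 27 reversed genes that have a GC value were still at least 2-fold lower, and with the correction made at every time the class held 2 genes. RB1CC1, MORC3 and ZNF654, a zinc finger gene, were within the limit at 3 h after correction, at -0.99, -0.95 and -0.82.

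**Figure D4:**
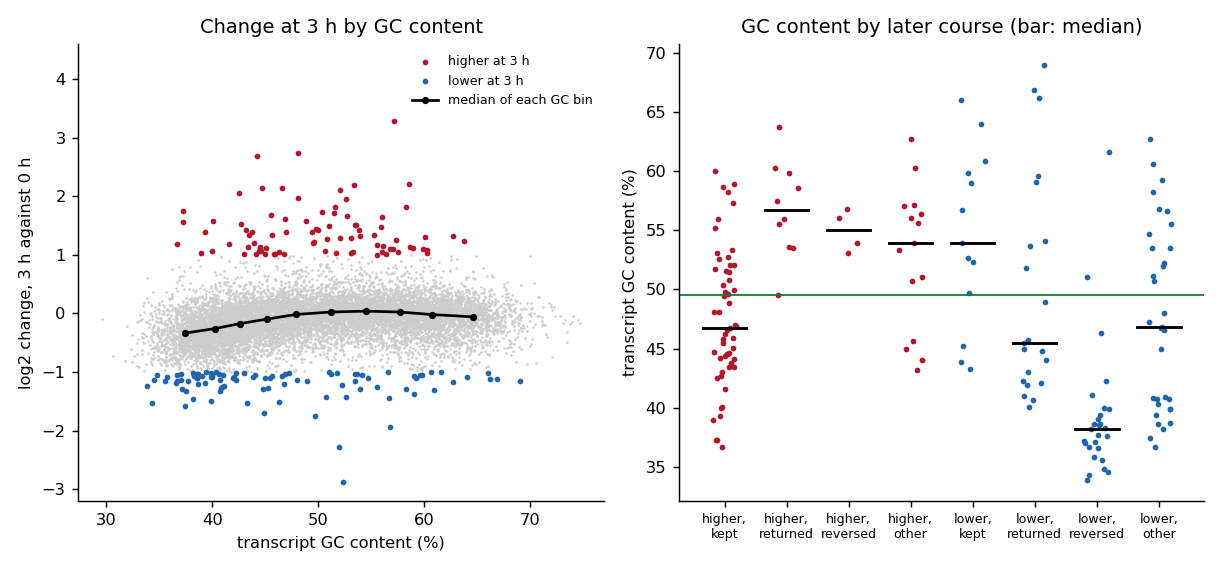
Left, log2 change at 3 h (y axis) against transcript GC content in percent (x axis) for the genes with a GC value, with the genes past 2-fold in red and blue and the median of each GC bin (10 bins of like size) in black. Right, GC content of the genes past 2-fold by later course, with medians as bars and the median of all genes, 49.5%, as the green line. The reversed lower genes sit at a median of 38.2%, below the other classes.

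Among all 11916 genes, 42 had the 3 h library at least 2-fold below each of the other 5, and 3 had it at least 2-fold above: CYP1A2, MALL and PIGR. All 42 are among the 103, as their definition requires, 25 of them in the reversed class, and the 37 with a GC value had a median of 38.6%. Across genes, which are not independent replicates, GC content and the change from 0 h had a correlation of 0.231 at 3 h and of -0.739, -0.430, -0.515 and -0.558 at 6, 12, 24 and 48 h. Genes of low GC content thus stood lower at 3 h and higher at the later times than at 0 h. Its part in the dip of the reversed genes was not tested beyond the correction given above. The opposite count, genes whose untreated library was at least 2-fold above all others, was 12, by definition in the kept class, with a median GC content of 53.3%.

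Most genes of cell division were slightly higher at 3 h, within the 2-fold limit. Of 30 mitosis genes 0 were past 2-fold, 22 were above 0 and the median was 0.38, or 0.60 with the GC trend removed. Of 40 genes of DNA replication and G1/S 2 were higher, E2F2 and CDC6, 35 were above 0 and the median was 0.36, while 4698 of the 11916 genes were above 0. CDC6, a loader of the replicative helicase, had 12.0, 25.3, 27.5, 37.9, 29.5 and 18.3 CPM. The mitotic genes nearest to the limit were BIRC5, an inhibitor of apoptosis that acts at the centromere (38.2 and 74.3 CPM, log2 change 0.94), and CCNB1, cyclin B1 (66.2 and 122 CPM, 0.87). They passed the limit with TMM scaling (1.02) and with the GC trend removed (1.04) respectively. At 24 h 15 of the 30 mitosis genes were at least 2-fold lower than at 0 h and 0 higher, beside 10.8% and 10.5% of all genes. ODC1, the first enzyme of polyamine synthesis, was at 521 and 859 CPM (log2 change 0.72), with 0 of 10 polyamine genes past the limit. Of the control lists, 0 of 19 housekeeping genes and 0 of 27 cytosolic ribosomal protein genes were past 2-fold, with medians of 0.13 and 0.07. Over all genes 0.747% were higher and 0.864% lower, so a count of 0 in lists of this size says little.

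**Figure D5:**
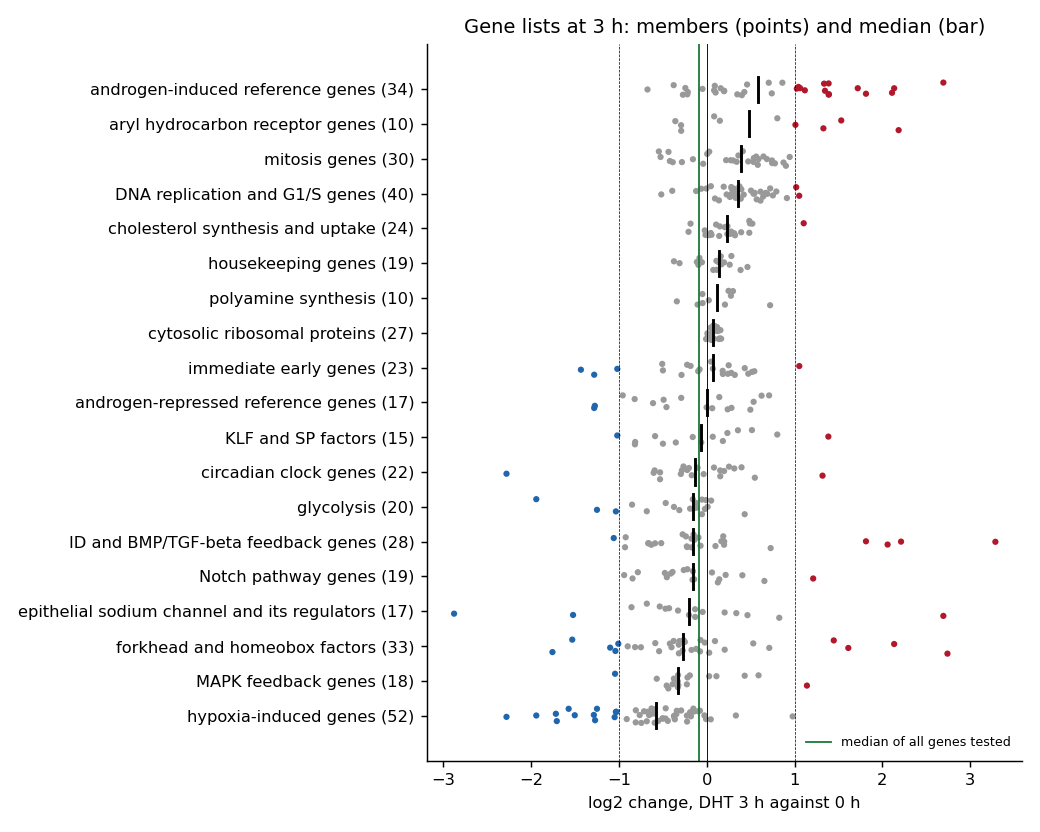
Log2 change at 3 h (x axis) of each measured gene (points, spread vertically at random) of 19 gene lists (y axis, number measured in parentheses), with list medians as black bars, the median of all genes as the green line, 2-fold as dashed lines and genes past it in red or blue. The hypoxia-induced genes have the lowest median, -0.58, and the androgen-induced reference genes the highest, 0.58.

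At the limit itself, the higher genes just inside were TNS3 (log2 change 1.003), a transcript without a symbol (1.004) and SLC16A6 (1.008), and those just outside were UGT1A1 (0.997), MDGA1 (0.994) and TIGD6 (0.988). The lower genes just inside were RASD1 (-1.0005), ZBTB32 (-1.002) and PIK3R1 (-1.006), and those just outside were SFRS12 (-0.9995), ZNF160 (-0.997) and UTX (-0.996).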

How the data were processed

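RNA of 6 LNCaP cultures, 1 library per group, was sequenced on an Illumina GAIIx, per the labels' protocols. Groups came from the sample titles. The table deposited by the authors has 1 line per RefSeq transcript. Its count columns hold whole numbers of tags, per the file headers, and its RPM columns (ppm in the file headers) hold those counts after scaling by the authors, and were used here only as an alternative denominator. The build was hg19, per the submitters' processing notes. The aligner, the counter and the strand setting were not given in the sources used here, so antisense and overlapping genes, and near copies such as RAB6C or the UGT1A genes, are uncertain.

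Of 18051 lines, 50 exact repeats were dropped and the rest summed to 17990 genes by symbol; 610 transcripts kept their RefSeq identifier as a name. Counts were scaled to CPM, with a pseudocount of 1 CPM and a mean count of at least 20. A count of 0 allows up to 3 counts, 0.146 to 0.228 CPM. Intervals are exact conditional binomial at 95%. Intervals and this floor cover counting error only, as no molecular identifiers are named. GC content came from GENCODE v29 transcripts for 11140 genes (93.5%), and its trend was removed with a lowess curve (span 0.3). Chromosomes and promoters came from RefSeq tables on GRCh38.p14, and no other coordinates are given because the builds differ. The median change of all genes moved by less than 0.1 under each scaling tried.

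Named genes were the 25 largest changes in each direction, up to 6 members of each list and of each class of later course, the 3 genes on each side of the limit, and KLK2, KLK3, TMPRSS2 and FKBP5. Other genes are named as members of a count or after their values were seen. Some genes named by this rule are not reported here. Members, lists and rules were chosen with earlier results of these data known. Alternatives were TMM factors (edgeR 4.0.16), median-of-ratios factors (DESeq2 1.42.0), the RPM denominator, pseudocounts of 0.5 and 5, no count minimum or one of 100, the GC correction, a 1.5-fold limit, intervals wholly past 2-fold, the depleted regions left out, and, chosen after seeing the data, genes with a GC value alone and UGT1A counted once. The calculation was tested on simulated data. Changes well past 2-fold were placed in genes with a mean count of 100 or more. The calling of low genes and of changes near the limit was therefore not tested. Python 3.11.15, scipy 1.17.1, statsmodels 0.14.6 and R 4.3.3 were used.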

Additional observations from a re-analysis of the deposited data

Results flagged for a closer look

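Genes whose change from 0 h was past 2-fold at 3 h and past 2-fold in the opposite direction at 24 or 48 h numbered 4 among the higher and 29 among the lower genes. The difference between the times was not tested, and all changes share the untreated library. PIGR had log2 changes of 1.43 at 3 h, -2.71 at 24 h and 0.027 at 48 h, and LCN2 had 1.15, -3.21 and 0.58. GAS7, a cytoskeletal adaptor, had 1.101, -0.22 and -1.12, and GRIK4, a glutamate receptor subunit, had 1.04, -0.67 and -1.11, both from 1.59 to 1.75 CPM at 0 h. Of the lower genes the 6 with the largest change at 3 h were FOXN2 (-1.53, 0.79 and 1.57), AKAP12 (-1.51, 1.99 and 3.69), RB1CC1 (-1.33, 1.28 and 2.53), MORC3 (-1.29, 0.50 and 1.09), ZNF654 (-1.24, 1.49 and 1.62) and WDR52 (-1.24, 0.60 and 1.57), at 3, 24 and 48 h in that order.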

How the results depend on the processing

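With 1 library per group no replicate could be left out, and depth limits genes under a few CPM. No paired analysis was possible because each group held 1 library. Of the counts of genes past 2-fold, the 89 higher became 38 with a pseudocount of 5, 52 with intervals wholly past 2-fold and 300 at a 1.5-fold limit. The 103 lower became 67 with TMM factors, 48 with the GC trend removed, 19 with a pseudocount of 5, 33 with intervals wholly past 2-fold and 969 at 1.5-fold. Median-of-ratios factors gave 100 and 80. Of the later courses of higher genes, a pseudocount of 5 left 24 kept, 4 returned and 2 reversed. A count minimum of 100 left 1 returned and 1 reversed, no minimum gave 20 returned, and TMM factors and a pseudocount of 0.5 gave 7 and 8 reversed. Of the lower genes, a pseudocount of 5 left 4 kept, 3 returned and 0 reversed, a count minimum of 100 left 4 kept, and the GC correction, applied at every time, left 7 kept and 2 reversed. TMM factors gave 10 returned and a pseudocount of 0.5 gave 37. The cause of these shifts was not tested, except that a larger pseudocount shrinks the change of low genes and a stricter limit or minimum admits fewer. The RPM denominator, leaving out the regions depleted at 12 h, and counting UGT1A once moved none of these counts by over 1.5 times. None of the 192 genes changed its direction under any alternative that gave it a value. The medians of the androgen-repressed and of the KLF and SP lists changed sign under some scalings, and that of the ID and BMP list with the GC trend removed.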

Other observations

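Several genes not described above moved in concert with one of the larger groups or on their own, and all were chosen after their values were seen. NDUFA4L2, which lowers the activity of respiratory complex I in hypoxia and is not on the hypoxia list used here, had 113, 49.5, 50.9, 31.0, 23.8 and 63.3 CPM over the 6 times. The signalling adaptors IRS1 and IRS2, which carry the signal of insulin and insulin-like growth factor receptors, had 10.5 and 23.1 CPM and 13.2 and 30.2 CPM at 0 and 3 h, and IGF1 itself had 14 and 52 counts. In the same pathway PIK3R1, the regulatory subunit of phosphoinositide 3-kinase, had 158 and 78.4 CPM, 167 CPM at 6 h and 58.0 CPM at 48 h. Its 3 h change came within the limit with median-of-ratios and TMM scaling (-0.95 and -0.92) and the RPM denominator (-0.997). With the GC trend removed its changes at 3 and 6 h were -0.75 and -0.78. Of the NF-kappa-B inhibitors, NFKBIA had 38.6 and 96.2 CPM and TNFAIP3 3.57 and 10.9 CPM, and both stayed above the untreated level in every later library. DSEL, an enzyme of dermatan sulfate synthesis, had 180, 75, 166, 123, 53.7 and 24.7 CPM. Its return at 6 h depended on the GC trend. With that trend removed its changes were -1.01 at 3 h, -0.91 at 6 h, -2.21 at 24 h and -3.48 at 48 h. The stress sensor ERN1 had 35.4 and 87.4 CPM at 0 and 3 h and 101 to 156 CPM afterwards.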
